A study of Mus musculus with 4 samples.

Results

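Rab proteins are small GTPases that mark the membranes of the secretory and endocytic pathways, and the 56 mouse genes with a Rab symbol of the form Rab, a number and at most 1 letter were examined among the 16051 genes listed. They were sorted, from general knowledge of where each protein works, into 7 early endosome, 8 recycling, 10 late endosome-lysosome, 14 secretory (endoplasmic reticulum and Golgi), 11 exocytic and 6 other or unplaced Rabs. Of these, 42 reached a mean of at least 1 FPKM (fragments scaled to transcript length and library size) and were tested. The cells were differentiated 3T3-L1 cells, a mouse line of NIH SWISS embryonic origin that forms fat cells in culture. They received the vehicle DMSO (the group labelled untreat, DMSO here) or 100 µM risperidone, an antipsychotic drug, for 48 h (RIS), in 2 libraries per group. RNA of 3 cultures was pooled for each library, so the spread between libraries is not the spread between single cultures, and the labels and methods name no genetic change in either group. The comparison asked what the drug changed in the transcriptome of these cells.

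A Rab protein is recruited to a membrane in its GTP-bound form, where it binds effectors such as tethers, motors and coat adaptors. Exchange factors load GTP, GTPase-activating proteins of the TBC family end the active state, and GDI proteins extract the GDP-bound, prenylated Rab for another round. In fat cells, Rab10 and its relatives act in the insulin-driven delivery of the glucose transporter GLUT4 to the cell surface, and Rab18 is found on lipid droplets.

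Library totals were 15883712 to 16374119 estimated counts, and a count of 0 allowed up to 0.183 to 0.189 CPM (counts scaled to library size), as far as counting error goes. The label of the cells as adipocytes was borne out by part of the markers only. Lpl, the lipase of fat tissue, had 11967 to 15569 counts and Pparg, the master regulator of fat cell differentiation, had 345 to 388. However, Adipoq had 0 or 1 count, Slc2a4, which encodes GLUT4, had 0, 0, 0 and 2, and 4 of 12 adipocyte markers reached 1 FPKM. The 8 markers of fibroblasts or preadipocytes summed to 14243 to 15269 CPM, while the 12 adipocyte markers summed to 1009.8 and 1092 CPM with DMSO and 809 and 814 CPM with risperidone. Fabp4, the fatty acid carrier of fat cells, had 1079 and 1360 counts with DMSO and 492 and 586 with risperidone. Of the 8 fibroblast or preadipocyte markers, Dlk1, Thy1 and Col1a1 had more counts in both RIS libraries than in both DMSO libraries, Col3a1, Pdgfrb, Col1a2 and Pdgfra had fewer, and Fn1 overlapped. The part of these marker differences in the Rab values was not tested. One library stood apart: in RIS replicate 2 the 18 kidney markers summed to 233 CPM, against 5.05 to 6.90 CPM in the other libraries, so values without it are also given for Rab genes whose call it decided.

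Promoter sequence is shown for the members with the 2 largest rises and 2 of the largest falls that had 1 listed start, since these are the genes on which the results turn. The 250 bases before the RefSeq start (build GRCm38.p6) are printed 5′ to 3′ on the gene's strand, with capitals where a searched motif stood in either orientation. The motifs were CACGTG (E-box), TGACGTCA (cAMP response element), TTCNNNGAA (STAT), GGGCGG (GC box), CCAAT and TATAAA, and none of them contains another.
Rab20 (chr8:11478641-11478890, minus strand): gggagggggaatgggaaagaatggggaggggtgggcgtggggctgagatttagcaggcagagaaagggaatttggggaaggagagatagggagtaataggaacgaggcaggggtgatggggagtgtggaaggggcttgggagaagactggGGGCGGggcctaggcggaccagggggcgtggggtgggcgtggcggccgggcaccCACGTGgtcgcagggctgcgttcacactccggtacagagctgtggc
Rab6b (chr9:103111824-103112073, plus strand): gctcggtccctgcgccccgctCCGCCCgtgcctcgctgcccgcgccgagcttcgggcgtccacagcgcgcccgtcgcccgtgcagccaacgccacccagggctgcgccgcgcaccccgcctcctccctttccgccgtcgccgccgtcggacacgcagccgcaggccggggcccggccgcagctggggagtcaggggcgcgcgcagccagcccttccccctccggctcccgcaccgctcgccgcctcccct
Rab39b (chrX:75578232-75578481, minus strand): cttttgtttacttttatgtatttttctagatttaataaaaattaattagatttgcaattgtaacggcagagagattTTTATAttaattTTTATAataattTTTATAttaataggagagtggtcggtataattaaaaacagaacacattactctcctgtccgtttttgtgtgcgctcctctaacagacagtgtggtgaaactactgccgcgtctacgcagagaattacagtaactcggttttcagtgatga
Rab32 (chr10:10558208-10558457, minus strand): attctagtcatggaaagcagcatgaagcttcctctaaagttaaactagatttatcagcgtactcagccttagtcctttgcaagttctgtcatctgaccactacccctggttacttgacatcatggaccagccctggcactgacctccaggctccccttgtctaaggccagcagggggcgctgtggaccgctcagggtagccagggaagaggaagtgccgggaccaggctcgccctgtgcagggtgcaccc
The Rab20 window held an E-box 46 bases and a GC box 100 bases before the start. The Rab6b window was 80.8% G and C with 1 GC box, and it lay inside the annotated gene, downstream of its outermost start. Rab39b had the opposite base composition, with 31.6% G and C and 3 TATAAA matches. The Rab32 window held none of the 6 motifs. Among the 46 members with a window, 73.9% held a GC box, against 35.4% of the 27025 genes with a window, and 10.9% held an E-box, against 6.86%. Median G and C content was 60.4% for the Rab windows and 52.4% for all windows, which include genes not tested here. The part of base composition in these shares was not tested. CCAAT stood in 23 of the 46 members against 37.5% of all genes, TATAAA in 8.70% against 14.3%, TTCNNNGAA in 8.70% against 8.13% and TGACGTCA in 4.35% against 1.77%. Of the 3 members that rose and the 6 with a window that fell in every fit described next, 1 in each direction held an E-box and 3 and 4 held a GC box. These matches describe letters in the window only.

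Rab genes changed in both directions after risperidone, mostly by small amounts. In these bulk libraries, fewer cells of a type and less RNA per cell cannot be told apart. Among the 42 tested, 10 rose and 13 fell, with adjusted p below 0.05 as the threshold (edgeR quasi-likelihood test, Benjamini-Hochberg over 10243 genes), which is 54.8%, while 64.3% of all genes tested passed, 32.1% as higher and 32.2% as lower. The balance of the calls depended on the scaling. In a fit on TPM (transcript values scaled to length and to 1 total), 3 Rab genes were higher and 27 lower. With an offset for gene length, 16 were higher and 8 lower. Over all 10243 genes, 1536 were higher and 5292 lower with TPM, and 4240 higher and 2534 lower with the offset. The median log2 fold change was -0.01 for the Rab genes and 0.00 for all genes, and the median absolute change was 0.17 against 0.30. With a limit of 0.5 on the size of the log2 fold change as well, 8 were called, or 19.0% of the Rab genes, against 27.7% of all genes. The 2 groups did not overlap for 30 of the 42 Rab genes, or 71.4%, against 82.9% of all genes.

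In addition to this test, 15 other fits were made with another scaling, filter, tool or set of libraries. Rab20, Rab6b and Rab3a were higher and Rab31, Rab22a, Rab36, Rab32, Rab23, Rab39b and Rab43 lower in every fit that tested them, 10 genes in all or 23.8%, against 35.2% of all genes (14.4% higher and 20.8% lower). Rab20, Rab36, Rab23 and Rab39b were too low for the fit restricted to a mean of 5 FPKM. The remaining 13 called genes had an absolute log2 fold change of 0.12 to 0.36, and 5 of them changed sign in the TPM fit. In that fit the median of all genes lay at -0.22, and 77.5% of all calls were lower, against 50.1% in the main test.

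**Figure D1:**
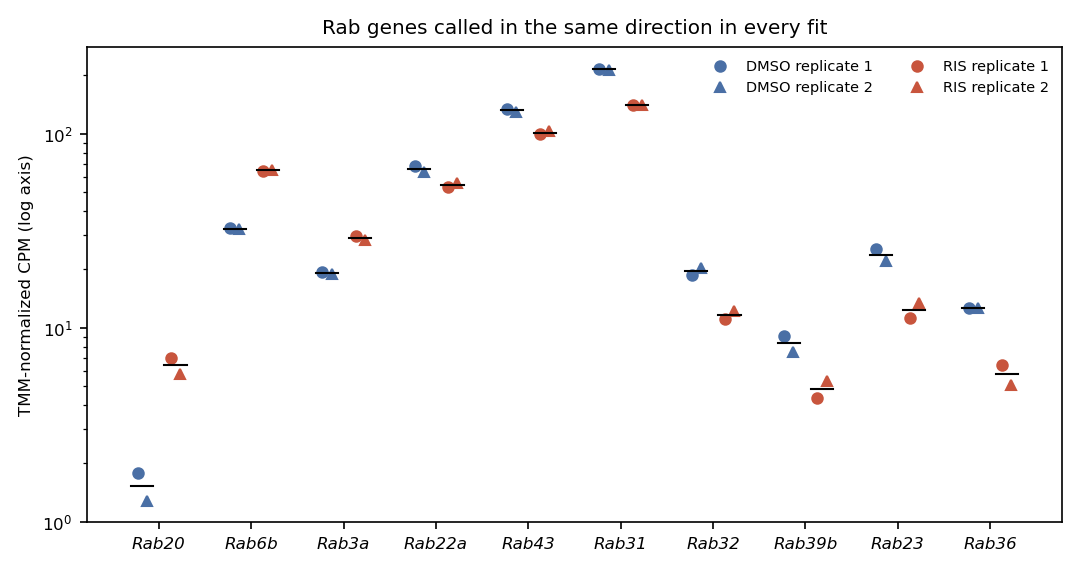
TMM-normalized CPM of the 10 Rab genes called in the same direction in every fit, on a log axis, ordered by log2 fold change. Circles and triangles are replicates 1 and 2, blue is DMSO, red is RIS and the bar is the mean of 2 libraries. The genes run from Rab20 at 1.28 and 1.78 against 5.81 and 6.97 CPM to Rab36 at 12.6 and 12.7 against 5.10 and 6.40 CPM. The groups do not overlap for any of the 10, which were chosen by their calls, nor for 82.9% of all genes tested.

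Early endosome Rabs, which receive cargo from the plasma membrane, included the largest rise of the family. Rab20 (chr8:11453390-11478640, gene spans here and below from RefSeq on GRCm38.p6), a Rab of endosomes and phagosomes, stood at 1.78 and 1.28 normalized CPM with DMSO and 6.97 and 5.81 CPM with risperidone. Both RIS libraries were thus above both DMSO libraries, by 4.15-fold (log2 2.05 ± 0.24 SE, adjusted p = 2.27e-05). Rab20 was nonetheless a weakly expressed gene, with a mean of 3.96 FPKM. Rab31 and Rab22a, close relatives of Rab5 that act between the trans-Golgi network and endosomes and in endosomal sorting, fell. Rab31 (chr17:65651726-65772752) had 217 and 214 CPM with DMSO and 140.1 and 141 CPM with risperidone (0.653-fold, log2 -0.61 ± 0.04, adjusted p = 8.09e-07). Rab22a (chr2:173659836-173702186) had 68.4 and 63.3 CPM against 52.9 and 55.9 CPM (0.826-fold, log2 -0.28 ± 0.07, adjusted p = 0.0044). In each, the replicates lay closer to each other than to the other group.

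The 3 genes of Rab5, the Rab that drives early endosome fusion, moved by similar small amounts. Rab5a had 131 and 135 CPM with DMSO and 159 and 153 CPM with risperidone (log2 0.23 ± 0.05, adjusted p = 0.00144). Rab5c had 179 and 177 CPM against 213 and 201 CPM (log2 0.22 ± 0.05, adjusted p = 0.00200). Rab5b had 189 and 194 CPM against 213 and 214 CPM (log2 0.16 ± 0.04, adjusted p = 0.0102). All were higher in both RIS libraries on this scale, but turned to -0.01, -0.02 and -0.08 in the TPM fit, where they lay 0.21, 0.20 and 0.14 above the median of all genes. The Rab5b call was lost without DMSO replicate 1 (log2 0.14, adjusted p = 0.111) and without DMSO replicate 2 (0.18, adjusted p = 0.0503). Rab21, an early endosome Rab of integrin traffic, had a log2 fold change of 0.13 (adjusted p = 0.108), 0.17 (adjusted p = 0.028) without RIS replicate 2 and -0.11 (adjusted p = 0.111) in the TPM fit. Rab5b also did not pass with library size only or in the FPKM fits, nor did Rab5c in the FPKM fits. In all, 4 early endosome Rabs were higher, 2 lower and 1 did not pass, and in the TPM fit 1 was higher and 2 lower.

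Recycling Rabs, which return cargo to the surface, had log2 fold changes from -0.22 to 0.06 in the main test. There, none was higher and 2 of 6 tested were lower. In the TPM fit the values ran from -0.45 to -0.18 and all 6 were lower, as were 5292 of all 10243 genes. Rab35, a fast recycling Rab, had 56.2 and 55.9 CPM with DMSO and 45.3 and 51.3 CPM with risperidone (log2 -0.22 ± 0.07, adjusted p = 0.0228), and without RIS replicate 1 the value was -0.13 (adjusted p = 0.106). Rab11b, of the slow recycling compartment, had 209 and 212 CPM against 197 and 189 CPM (log2 -0.13 ± 0.05, adjusted p = 0.0319). Its call was lost without DMSO replicate 1 (-0.14, adjusted p = 0.11), without DMSO replicate 2 (-0.12, adjusted p = 0.194) and without RIS replicate 2 (-0.10, adjusted p = 0.101). Its relative Rab11a had a log2 fold change of 0.06 ± 0.06 (adjusted p = 0.344). Neither recycling call held in DESeq2, without a filter or with the offset for gene length, and that of Rab11b was also lost with the replicate block.

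Rab14, a recycling Rab also found on GLUT4 vesicles, had 196 and 197 CPM with DMSO and 192 and 191 CPM with risperidone (log2 -0.04 ± 0.04, adjusted p = 0.47). Rab4a had 34.5 and 38.5 CPM against 34.5 and 33.7 CPM (log2 -0.10 ± 0.07, adjusted p = 0.224). Rab4b had 17.0 and 16.5 CPM against 17.0 and 15.5 CPM (log2 -0.05 ± 0.10, adjusted p = 0.701), and its groups overlapped. Rab14 and Rab4a passed as lower where libraries were scaled by their size alone (-0.13 and -0.19) and in the fits on FPKM and TPM.

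Late endosome and lysosome Rabs held both the most abundant Rab message and 2 of the clearest falls. Rab7 (chr6:87999106-88045270), which directs fusion with lysosomes, had 825 and 839.7 CPM with DMSO and 747 and 761 CPM with risperidone (0.905-fold, log2 -0.14 ± 0.05, adjusted p = 0.0203). Its groups did not overlap, but the call was lost with the offset for gene length (-0.075, adjusted p = 0.116), without DMSO replicate 1 (-0.16, adjusted p = 0.103), without DMSO replicate 2 (-0.13, adjusted p = 0.166) and with a replicate block (-0.14, adjusted p = 0.0532). Per length it averaged 391 FPKM, which was 20.3% of the summed FPKM of all Rab genes. Rab36 (chr10:75036895-75054748), a Rab of lysosome positioning, had 12.7 and 12.6 CPM against 6.40 and 5.10 CPM (0.455-fold, log2 -1.14 ± 0.15, adjusted p = 7.08e-05). Rab32 (chr10:10545039-10558207), known from lysosome-related organelles and mitochondria, had 18.6 and 20.4 CPM against 11.1 and 12.2 CPM (0.598-fold, log2 -0.74 ± 0.11, adjusted p = 0.000154). These RIS libraries all lay well below the DMSO libraries.

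Other genes of this class rose. Rab9, which serves the return of mannose 6-phosphate receptors from late endosomes to the Golgi, had 49.5 and 54.2 CPM with DMSO and 66.7 and 66.3 CPM with risperidone (1.28-fold, log2 0.36 ± 0.07, adjusted p = 0.000751), and had a value of 0.11 (adjusted p = 0.143) in the TPM fit. Rab24, a Rab linked to autophagy, had 44.2 and 46.2 CPM against 53.0 and 51.2 CPM (log2 0.21 ± 0.06, adjusted p = 0.0141). Rab24 did not pass without DMSO replicate 1 (0.17, adjusted p = 0.0605) or in DESeq2 (0.21, adjusted p = 0.0819), with library size only or in the FPKM fits, and turned to -0.06 in the TPM fit. In the TPM fit, 0 genes of this class were higher and 5 lower. Rab7b, Rab12, Rab29 and Rab34 did not pass, with log2 fold changes of 0.31, 0.00, -0.01 and -0.09. Rab7b, at 8.91 and 10.7 CPM against 11.8 and 12.5 CPM, had an adjusted p of 0.0719, and of 0.0488 with the replicate block.

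**Figure D2:**
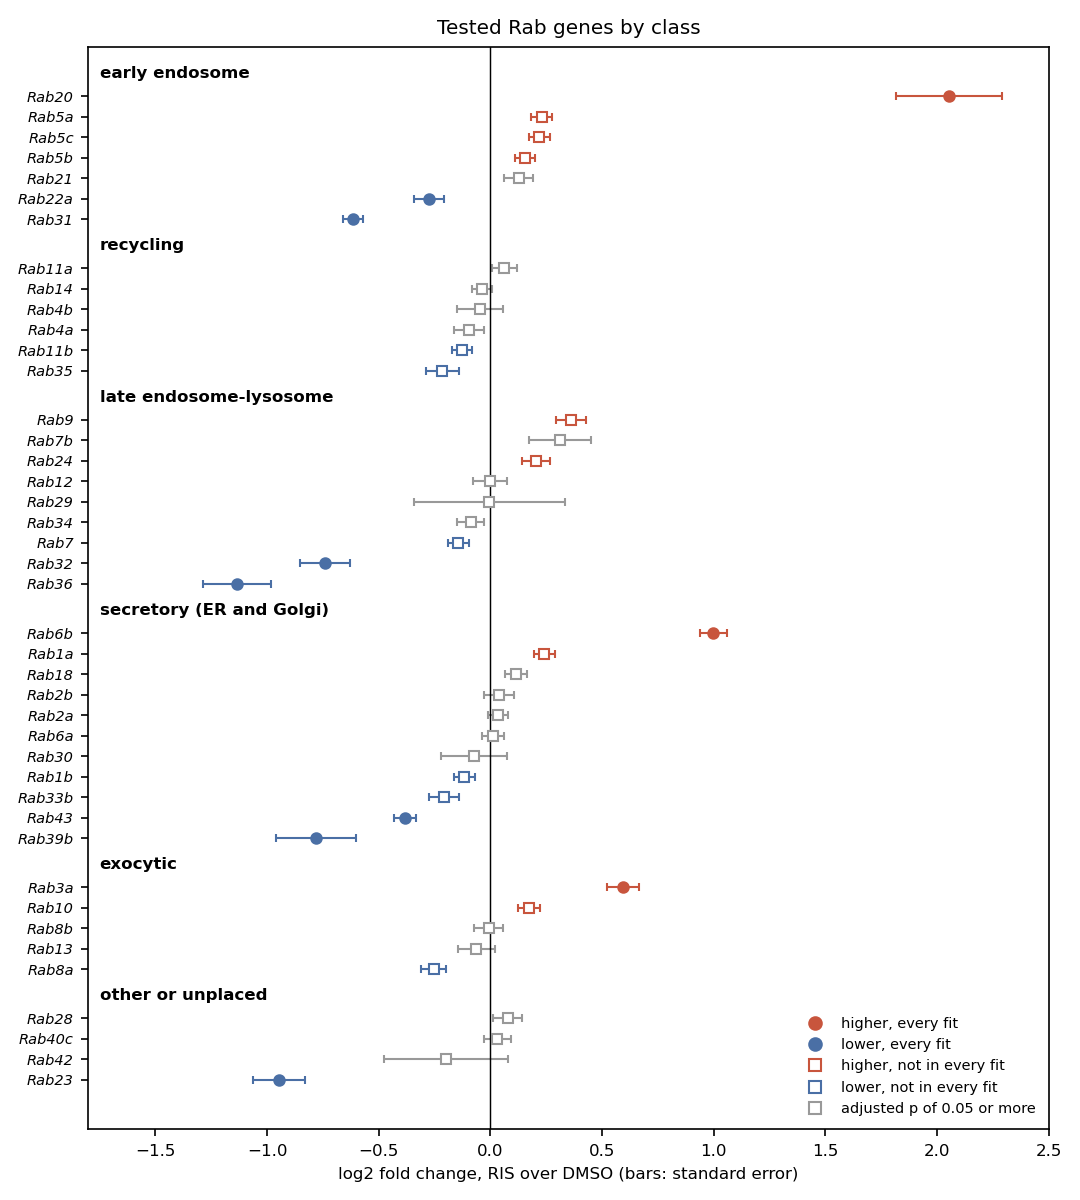
Log2 fold changes (RIS over DMSO) of the 42 tested Rab genes by class, with bars for the standard error. Filled circles were called in every fit and open coloured squares in the main test but not in every fit. Grey squares were not called in the main test, though some were in other fits. The recycling class stays between -0.22 and 0.06, while early endosome Rabs run from -0.61 (Rab31) to 2.05 (Rab20).

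Secretory Rabs of the endoplasmic reticulum and Golgi included 2 higher, 4 lower and 5 that did not pass in the main test, 1 higher and 8 lower in the TPM fit, and 2 and 2 in DESeq2. Rab6b (chr9:103111667-103185276), the second gene of the Golgi Rab6 pair and best known from neurons, had 32.7 and 32.3 CPM with DMSO and 64.5 and 65.3 CPM with risperidone (log2 0.998 ± 0.062, adjusted p = 2.68e-07). Rab6a, the broadly expressed gene of that pair, overlapped between the groups at 149 and 160.4 CPM against 156 and 156 CPM (log2 0.01 ± 0.05, adjusted p = 0.871). Rab39b (chrX:75572045-75578231), a Rab of Golgi traffic known from neurons, had 9.09 and 7.50 CPM against 4.35 and 5.29 CPM (0.581-fold, log2 -0.78 ± 0.18, adjusted p = 0.00276). Rab43 (chr6:87788853-87812164), a Golgi Rab, had 134 and 129.7 CPM against 99.4 and 103 CPM (0.767-fold, log2 -0.38 ± 0.05, adjusted p = 4.77e-05). In both, each RIS library lay below each DMSO library.

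Rab1, needed for transport from the endoplasmic reticulum to the Golgi, has 2 genes that moved apart. Rab1a had 169 and 176 CPM with DMSO and 202 and 205 CPM with risperidone (log2 0.24 ± 0.05, adjusted p = 0.000841), but 0.00 (adjusted p = 0.972) in the TPM fit. Rab1b, the highest of the class per length at a mean of 102 FPKM, had 176 and 185 CPM against 166 and 168 CPM (log2 -0.12 ± 0.05, adjusted p = 0.0481). That call was lost with any of the 4 libraries left out, at -0.15 (adjusted p = 0.088) and -0.08 (0.374) without DMSO replicates 1 and 2, and -0.11 (0.0879) and -0.12 (0.053) without RIS replicates 1 and 2, and also in DESeq2, with RLE size factors, without a filter, with the length offset and with the block. Rab33b, a Golgi Rab with a part in autophagy, had 39.4 and 39.8 CPM against 36.5 and 32.0 CPM (log2 -0.21 ± 0.07, adjusted p = 0.0205). Without DMSO replicate 2 the adjusted p was 0.0557, and without RIS replicate 2 the change was -0.12 (adjusted p = 0.181). It also did not pass in DESeq2 (adjusted p = 0.139), without a filter (adjusted p = 0.0852) or with the offset for gene length (-0.069, adjusted p = 0.404).

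Rab18, the lipid droplet Rab that also acts at the endoplasmic reticulum, had 236 and 238 CPM with DMSO and 249 and 264 CPM with risperidone (log2 0.11 ± 0.05, adjusted p = 0.0566). Its groups did not overlap, and it passed with an offset for gene length (0.26, adjusted p = 0.000174). The log2 fold change was 0.15 without RIS replicate 1 and 0.07 without RIS replicate 2, the library with the kidney markers. The value of Rab18 was 0.02 (adjusted p = 0.769) on log2(FPKM + 1) and -0.12 (adjusted p = 0.0915) in the TPM fit. Rab2a, Rab2b and Rab30 did not pass, with log2 fold changes of 0.03, 0.04 and -0.07. For Rab30, a Golgi Rab, the deposited measures went apart: it had 180 and 157 counts with DMSO and 137 and 163 counts with risperidone, which overlap, but 2.76 and 2.46 FPKM against 1.38 and 1.81 FPKM, which do not (limma on log2(FPKM + 1), -0.48, adjusted p = 0.0114).

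Exocytic Rabs, which bring vesicles to the plasma membrane, numbered 2 higher, 1 lower and 2 that did not pass among 5 tested, and 1 higher and 3 lower in the TPM fit. Rab3a (chr8:70754703-70758608), the Rab of regulated secretion at synapses and in endocrine cells, had 19.5 and 18.8 CPM with DMSO and 29.6 and 28.3 CPM with risperidone (1.51-fold, log2 0.59 ± 0.07, adjusted p = 3.58e-05). Rab10, the main Rab of GLUT4 vesicle delivery and the most abundant of this class at a mean of 102 FPKM, had 316 and 337 CPM against 373 and 364 CPM (log2 0.17 ± 0.05, adjusted p = 0.0102). The Rab10 call was lost without DMSO replicate 1 (0.13, adjusted p = 0.154), with library size only (0.080, adjusted p = 0.181) and in the FPKM fits (0.078, adjusted p = 0.199 on log2(FPKM + 1)), and in the TPM fit the value was -0.06. Rab8a, of Golgi to surface transport, had 99.6 and 93.7 CPM against 82.2 and 79.9 CPM (0.838-fold, log2 -0.25 ± 0.06, adjusted p = 0.00228), and -0.21 (adjusted p = 0.0672) without DMSO replicate 1. Rab13, a Rab of cell junctions and GLUT4 traffic, overlapped at 25.8 and 23.6 CPM against 24.9 and 22.4 CPM (log2 -0.06 ± 0.08, adjusted p = 0.52). Rab8b had a log2 fold change of -0.01 (adjusted p = 0.924) and 0.17 with an offset for gene length, which moved the median of all genes to 0.10.

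Of the Rabs outside these classes, Rab23 (chr1:33719896-33742564), a ciliary Rab that restrains Hedgehog signalling, was the only one of 4 tested that passed in the main test, while 3 were lower in the TPM fit. It had 25.5 and 22.1 CPM with DMSO and 11.2 and 13.5 CPM with risperidone (0.518-fold, log2 -0.95 ± 0.12, adjusted p = 3.56e-05), with both RIS libraries well below both DMSO libraries. Rab28, Rab40c and Rab42 had log2 fold changes of 0.08, 0.03 and -0.20.

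The 14 Rab genes under 1 FPKM were mostly those of specialised secretory or epithelial cells: Rab3b, Rab3c, Rab3d, Rab27a, Rab27b, Rab37, Rab38, Rab17, Rab25, Rab19, Rab33a, Rab39, Rab40b and Rab44. In 10 of them no library exceeded 10 counts. In a fit without the filter, where 37.5% of 16051 genes passed, Rab40b alone passed, with 39 and 39 counts under DMSO and 11 and 14 under risperidone (log2 -1.54, adjusted p = 0.0119). Rab3d had 47 and 32 counts against 55 and 78 (log2 0.84, adjusted p = 0.0677). Rab17, a Rab of epithelial cells, had 0 and 0 counts against 1 and 4, the highest in the library with the kidney markers, and these counts are too few for a fold.

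Compared per length, the composition of the Rab pool differed little between the groups. Early endosome Rabs made up 18.7% to 19.0% of the summed Rab FPKM with DMSO and 19.5% to 19.9% with risperidone, secretory Rabs 23.1% to 23.3% and 23.7% to 24.0%, and exocytic Rabs 9.68% to 9.82% and 10.3% to 10.5%. Late endosome-lysosome Rabs made up 29.8% to 30.1% and 28.4% to 28.8%, and recycling Rabs 14.95% to 15.01% and 14.2% to 14.5%. Each of these shares was free of overlap between the groups, but none moved by 2 percentage points. Only Rab7, Rab5c, Rab11b, Rab10 and Rab1b averaged 100 FPKM or more, and these 5 held 41.9% of the total. The last 4 lay within 102 to 107 FPKM of each other, and their order is not resolved by their spread. The 5 tested genes with the largest absolute log2 fold changes, Rab20, Rab36, Rab6b, Rab23 and Rab39b, averaged 3.96, 2.62, 10.5, 4.35 and 2.02 FPKM, and Rab31, which fell by 0.61 on the log2 scale, averaged 53.5 FPKM.

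Ratios of 2 genes within a library do not depend on how libraries are scaled to each other, so they were computed from the counts of pairs with related sequence or a related station. The Rab6b to Rab6a ratio was 0.219 and 0.201 with DMSO and 0.414 and 0.419 with risperidone, and the Rab1a to Rab1b ratio 0.957 and 0.949 against 1.22 and 1.22. Rab9 to Rab7 rose from 0.0599 and 0.0645 to 0.0894 and 0.0871, and Rab11a to Rab11b from 0.443 and 0.447 to 0.516 and 0.498. Rab8a to Rab10 was lower, with 0.315 and 0.278 against 0.220 and 0.220, as was Rab31 to Rab22a, with 3.17 and 3.38 against 2.65 and 2.53. The Rab5a to Rab5b ratio was 0.694 and 0.697 against 0.750 and 0.714. In contrast, the ratios of Rab5a to Rab5c, Rab4a to Rab4b and Rab2a to Rab2b overlapped between the groups. Of the other pairs computed, Rab3a to Rab3d overlapped. Rab31 to Rab5c, Rab8a to Rab8b, Rab7b to Rab7, Rab40b to Rab40c and Rab20 to Rab5c did not. All ratios are given without a test. Counts of Rab10, Rab5a, Rab11b, Rab33b and Rab1a were not whole in at least 1 library, so some of their reads were divided with another feature.

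**Figure D3:**
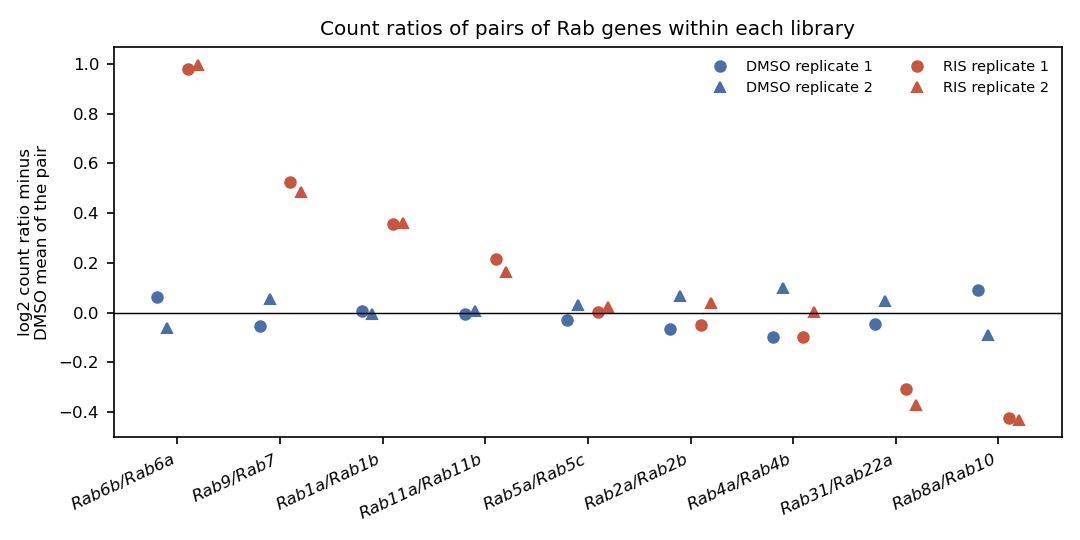
Log2 count ratio of pairs of Rab genes in each library, less the mean of the 2 DMSO libraries of that pair. Blue is DMSO and red is RIS, with circles and triangles for replicates 1 and 2; Rab6b/Rab6a (0.99), Rab9/Rab7 (0.51) and Rab1a/Rab1b (0.36) lie higher and Rab31/Rab22a (-0.34) and Rab8a/Rab10 (-0.43) lower in RIS, while Rab5a/Rab5c, Rab2a/Rab2b and Rab4a/Rab4b overlap.

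The machinery that keeps Rab proteins soluble or attaches their lipid anchor had more genes higher than lower in the main test. Of 8 tested genes of prenylation and the GDI cycle, 6 were higher and 1 lower, with a median log2 fold change of 0.39, but 3 were higher and 2 lower in the TPM fit. Rabac1, a receptor for prenylated Rabs, had 49.2 and 51.5 CPM with DMSO and 93.7 and 88.4 CPM with risperidone (log2 0.85 ± 0.06, adjusted p = 9.66e-07). Rabggtb, the catalytic subunit of the Rab prenyltransferase, had 55.1 and 58.5 CPM against 99.9 and 98.4 CPM (log2 0.80 ± 0.06, adjusted p = 9.99e-07). Gdi2, which extracts Rabs from membranes, had 520.2 and 545 CPM against 792 and 789 CPM (log2 0.57 ± 0.05, adjusted p = 2.53e-06). These 3 held in every fit. Rabif, the one gene that was lower, was not called without DMSO replicate 2.

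Among the exchange factors, 15 of 44 tested were higher and 17 lower, with a median of 0.01, and in the TPM fit 6 were higher and 22 lower. Rin2, an activator of Rab5, had 65.6 and 70.9 CPM with DMSO and 32.1 and 38.1 CPM with risperidone (log2 -0.96 ± 0.08, adjusted p = 3.17e-06). Dennd6a, an activator of Rab14, fell by 0.92 ± 0.08 on the log2 scale. Both Mon1 genes of the Rab7 exchange factor were lower, Mon1a at -0.76 ± 0.14 and Mon1b at -0.51 ± 0.06, while the partner Ccz1 had 0.09 ± 0.07 (adjusted p = 0.262) and, without RIS replicate 2, 0.17 (adjusted p = 0.025); these were picked after their values were seen, since Rab7 was the most abundant member.

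Of 32 tested TBC genes, 9 were higher, Tbc1d2 among them, and 14 lower, with a median of 0.01. Tbc1d2, a GTPase-activating protein for Rab7, had 2.61 and 1.89 CPM with DMSO and 9.72 and 7.87 CPM with risperidone and thus lay above the DMSO libraries in both. It had 0.65 and 0.55 FPKM with DMSO and 2.39 and 1.96 FPKM with risperidone, so it reached the mean of 1 FPKM only through the group where it was high, and its fold and p are not given. Likewise, Rpgr among the exchange factors and Kif20a among the secretion effectors, both counted as lower, were at a mean under 1 FPKM with risperidone. Tbc1d7, better known as a subunit of the TSC complex, and Tbc1d19 fell, with log2 -1.09 ± 0.14 and -0.70 ± 0.07. With an offset for gene length the list turned to 15 higher and 9 lower, in the TPM fit to 1 higher, which was Tbc1d2, and 17 lower, and without DMSO replicate 2 the higher genes numbered 5.

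Effectors of early and recycling endosomes numbered 5 higher and 4 lower of 17 tested, near a median of 0.01, and 1 and 10 in the TPM fit. Rab11fip5, a Rab11 effector, rose (119 and 113 CPM against 199.7 and 193 CPM, log2 0.76 ± 0.05), while Micall1 (-0.62 ± 0.06), of tubular recycling endosomes, and Rufy1 (-0.60 ± 0.11), a Rab4 and Rab14 effector, fell. Effectors of late endosomes and lysosomes numbered 7 higher and 4 lower of 20, with a median of 0.07, and 2 and 7 in the TPM fit. Rilpl1, of the RILP family, rose (71.5 and 69.0 CPM against 133 and 129 CPM, log2 0.90 ± 0.05), while Vps33a (-0.75 ± 0.07), of the HOPS tether, and Vps26a (-0.55 ± 0.06), of retromer, fell. Subunits of the same complexes did not move together: Vps11 (0.46 ± 0.05), Vps16 (0.38 ± 0.07) and Vps18 (0.16 ± 0.06) of HOPS and Vps35 (0.33 ± 0.05) of retromer were higher, Vps41 (-0.26 ± 0.05) of HOPS was lower, and Vps39 (0.10 ± 0.05) and Vps29 (-0.10 ± 0.07) did not pass, though Vps29 had -0.17 (adjusted p = 0.0427) without RIS replicate 2. Of these, Vps16, Vps18 and Vps35 did not pass as higher in the TPM fit, nor did Vps18 with either DMSO library or RIS replicate 1 left out. Effectors of secretion and exocytosis numbered 12 higher and 8 lower of 23, with a median of 0.21, and 5 and 8 in the TPM fit. Exoc8, an exocyst subunit, fell (38.1 and 37.0 CPM against 17.8 and 19.8 CPM, log2 -0.996 ± 0.070), whereas Micall2 (0.81 ± 0.07), a Rab8 and Rab13 effector, and Golga2 (0.81 ± 0.05), the Golgi matrix protein GM130, rose. Without DMSO replicate 2 the higher early and recycling effectors numbered 3, the higher late effectors 4 and the lower secretion effectors 5.

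**Figure D4:**
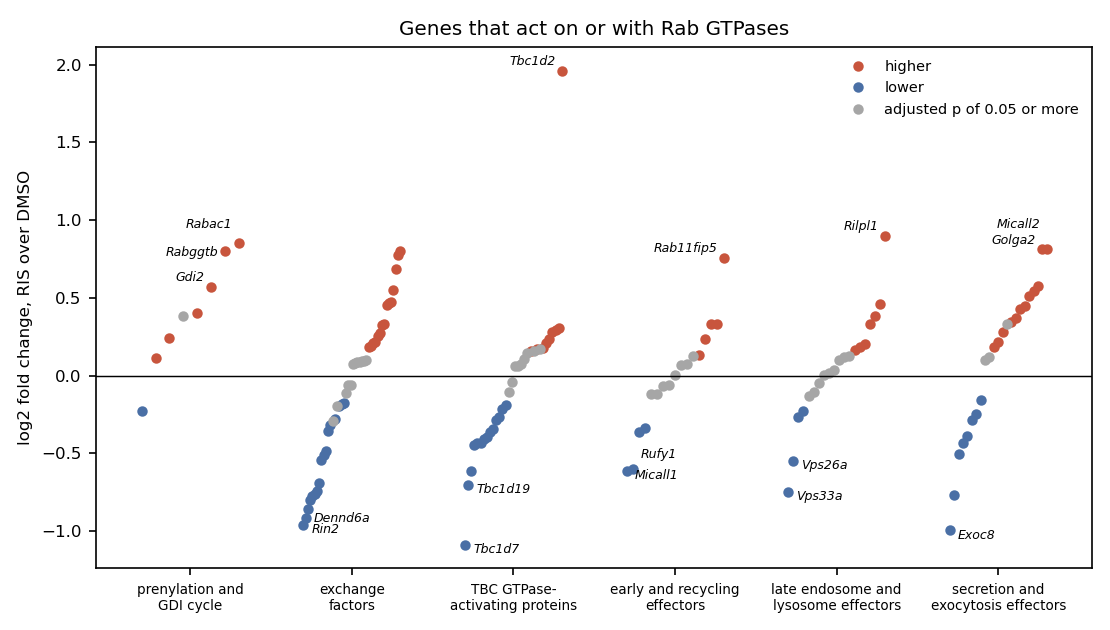
Log2 fold changes (RIS over DMSO) of the tested genes of 6 lists that act on or with Rab proteins, sorted within each list. Red and blue points were called higher and lower in this main test and grey points were not called. Most of the prenylation and GDI cycle genes lie above 0 (3 higher and 2 lower in the TPM fit). The topmost point, Tbc1d2, passed the filter on low values only through the RIS group.

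For GLUT4 vesicle traffic, a list that includes Rab10, Rab8a, Rab14, Rab13, Rab4a and Rab4b, 6 of 19 tested genes were higher and 6 lower, with a median of -0.04, and 1 was higher and 11 lower in the TPM fit. Vamp2, the vesicle SNARE of this route, had 72.8 and 75.8 CPM with DMSO and 37.4 and 41.9 CPM with risperidone (log2 -0.91 ± 0.07, adjusted p = 1.56e-06). Lnpep, the aminopeptidase carried on GLUT4 vesicles, fell by 0.86 ± 0.09 on the log2 scale, and Rala, a GTPase that engages the exocyst, rose by 0.45 ± 0.07. Tbc1d4, the GTPase-activating protein for Rab10, was lower at -0.45 ± 0.07. Slc2a4 itself stood at 0 to 2 counts, and the lower genes numbered 3 without DMSO replicate 1. Of 10 tested genes of lipid droplet tethering, 4 were higher and 2 lower, with a median of 0.15, and 2 and 4 in the TPM fit. Acsl3 (log2 0.62 ± 0.06), an acyl-CoA synthetase of nascent droplets, and Rint1 (0.54 ± 0.09) and Nbas (0.34 ± 0.07), both of the NRZ tether that Rab18 engages, rose, while Plin2, a droplet coat protein, fell by 0.34 ± 0.05 on the log2 scale. Zw10, the other NRZ subunit, overlapped between the groups (-0.11 ± 0.08, adjusted p = 0.259), and Nbas did not pass in the TPM fit. The lower genes of this list numbered 1 without DMSO replicate 1 or without RIS replicate 2. All of these lists were drawn up with earlier results of these data known, and their counts compare with 64.3% called among all genes.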

How the data were processed

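Differentiated 3T3-L1 cells were profiled by mRNA sequencing (MGISEQ-2000) in 2 DMSO and 2 risperidone libraries, each pooled from 3 cultures. Nothing says that the 2 libraries of a group are from separate experiments, so p-values measure the spread between pooled libraries only. The submitters' processing notes name Bowtie2, RSEM, DESeq2 and build GRCm38.p6, with no versions. The labels also name embryo tissue and an extraction from retinas, whereas the methods of the study describe cell cultures, which were followed; 6 retina markers summed to 3.32 to 3.66 CPM and 5 macrophage markers to 3.30 to 8.26 CPM. The deposited table holds, for each library, estimated counts (expected counts), which the authors left unnormalized and which were rounded here. It also holds FPKM, which the authors computed on their DC.TOM platform, and TPM as deposited by the authors.

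All genes averaging 1 FPKM or more were tested in edgeR 4.0.16 (R 4.3.3) by the quasi-likelihood F-test, two-sided, with TMM factors and Benjamini-Hochberg adjustment at 0.05. SE was taken as |log2 fold change|/√F, and CPM values of genes are TMM-normalized, while marker sums and counting floors are scaled to library totals alone. Gene and list names followed a rule: per class up to 5 called members with the largest change and the most abundant one, 7 members of GLUT4 traffic and lipid droplets, and 3 called genes per list, of which 1 is not reported here. Mon1a, Mon1b, Ccz1, Tbc1d4, Zw10, Fabp4, the fibroblast markers, the further HOPS and retromer subunits and the members outside the rule were added after their values were seen. The members and lists were chosen with earlier results of these data known. Scripts were tested on simulated data. Alternatives used DESeq2 1.42.0, limma 3.58.1 on log2(FPKM + 1), log2(FPKM + 0.1) and log2(TPM + 1), other size factors and filters, an offset for gene length, a replicate block and libraries left out in turn. Replicates of a group differed by more than sampling noise and were kept apart. Depth was near equal, at 15883712 to 16374119 counts, and counting floors are 3 counts. Same-numbered libraries did not deviate together (r = -0.14 over 10243 genes), so replicate numbers were not taken to pair libraries. Promoters and coordinates are from RefSeq on GRCm38.p6.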

Additional observations from a re-analysis of the deposited data

How the results depend on the processing

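The 10 Rab genes called in every fit kept their direction and side of the threshold by definition. Counts over the whole family and its classes moved between fits. In the fits without TMM or a similar factor, more of the calls were lower. In the TPM fit (median of all genes -0.22) 3 Rab genes were higher and 27 lower, by class 1 higher for early endosome, 1 higher and 3 lower for exocytic, 0 higher and 5 lower for late endosome-lysosome, 6 lower for recycling, 1 higher and 8 lower for secretory and 3 lower for the others. The signs of 13 genes reversed there: Rab18 -0.12, Rab21 -0.11, Rab2a -0.20, Rab10 -0.064, Rab6a -0.23, Rab5a -0.010, Rab24 -0.065, Rab2b -0.19, Rab40c -0.20, Rab5b -0.082, Rab28 -0.16, Rab5c -0.022 and Rab11a -0.18. The lists, a comparison added after seeing the data, then had 3 higher and 2 lower genes of prenylation and GDI, 6 higher exchange factors, 1 higher TBC gene, 1 higher and 10 lower early and recycling effectors, 2 and 7 late effectors, 5 higher secretion effectors, 1 and 11 genes of GLUT4 traffic and 2 and 4 of lipid droplets. In both FPKM fits (medians -0.08 and -0.09) 6 were higher, with 2 higher for early endosome, 1 for exocytic, 1 for late endosome-lysosome and 4 lower for recycling. With library size only (median -0.09) 1 exocytic and 1 late gene were higher and 4 recycling genes lower, and the lists had 3 higher prenylation and GDI genes, 4 higher TBC genes, 3 higher and 7 lower early and recycling effectors and 4 higher late effectors. Genes that passed neither there nor in the main test also turned negative, at Rab2a -0.059, Rab6a -0.083, Rab2b -0.053, Rab40c -0.062, Rab28 -0.016, Rab11a -0.031 with library size only, at Rab2a -0.055, Rab6a -0.083, Rab2b -0.052, Rab40c -0.061, Rab28 -0.020, Rab11a -0.035 on log2(FPKM + 1) and at Rab2a -0.055, Rab6a -0.085, Rab2b -0.056, Rab40c -0.064, Rab28 -0.020, Rab11a -0.035 on log2(FPKM + 0.1). The share of lower calls among all called genes was 50.1% in the main test, 77.5% with TPM and 37.4% with the length offset.

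With the offset for gene length (median 0.10) 16 Rab genes were higher and 8 lower, with 1 higher and 0 lower for recycling and 4 higher and 2 lower for secretory, and 4 genes turned positive (Rab8b 0.17, Rab14 0.076, Rab30 0.11, Rab12 0.058). The lists then had 15 higher and 9 lower TBC genes, 8 higher early and recycling effectors, 12 higher late effectors, 5 lower secretion effectors and 1 lower lipid droplet gene. Asking for an absolute log2 fold change of 0.5 left 3 higher and 5 lower, namely 1 higher and 1 lower for early endosome, 1 and 0 for exocytic, 0 higher for late endosome-lysosome, 0 lower for recycling and 1 and 1 for secretory; this follows from the stricter rule. DESeq2 left 1 higher late gene, 0 lower recycling and 2 lower secretory genes. Without a filter, recycling had 0 lower, secretory 2 and the others 2. At a mean of 5 FPKM the others had 0 lower, since Rab23 was no longer tested, and Rab6a -0.015 was negative. Where no construction is named, the cause was not tested.

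Leaving out 1 library gave 7 to 11 higher and 9 to 11 lower Rab genes. By class, higher and lower counts were 3 to 5 and 2 to 2 for early endosome, 1 to 2 and 0 to 1 for exocytic, 1 to 2 and 2 to 3 for late endosome-lysosome, 0 and 1 for recycling, 2 to 3 and 2 to 3 for secretory and 0 and 1 for the others. By list they were 4 to 6 and 0 to 1 for prenylation and GDI, 13 to 15 and 13 to 17 for exchange factors, 5 to 10 and 11 to 13 for TBC genes, 3 to 5 and 4 to 5 for early and recycling effectors, 4 to 7 and 3 to 6 for late effectors, 10 to 12 and 5 to 7 for secretion, 5 to 6 and 3 to 6 for GLUT4 traffic and 3 to 5 and 1 to 2 for lipid droplets. Of genes not called in the main test, these changed sign with a library left out, over the ranges Rab12 -0.038 to 0.036, Rab13 -0.14 to 0.014, Rab29 -0.39 to 0.30, Rab2b -0.021 to 0.099, Rab30 -0.21 to 0.052, Rab40c -0.020 to 0.083, Rab42 -0.55 to 0.28, Rab4b -0.12 to 0.018, Rab6a -0.042 to 0.063, Rab8b -0.075 to 0.057. A lone library in a group was then assumed to vary like the other group.

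The replicate block gave 11 higher and 10 lower Rab genes, with 1 lower recycling gene. Same-numbered libraries had r = -0.14 over all tested genes and -0.02 over the Rab genes, so the block is no pairing. The crossed numbering, chosen after seeing the data, gave 13 higher and 13 lower. Counts of 10 or fewer in every library limit what can be said of 10 Rab genes.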
